A study of Homo sapiens with 21 samples.

Results

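The 41 genes described here act in mitosis, the part of the cell cycle in which copied chromosomes are lined up on a spindle and parted between daughter cells. They were chosen as a list of gene symbols, and all 41 were found among the 37355 genes of the count table and among the 17650 genes tested. RNA was sequenced from BT474, a line of human breast cancer cells in which the gene for the growth factor receptor HER2 (ERBB2) is amplified, in 21 libraries that formed 7 groups of 3. The study asked what antibodies against HER2 do to these cells and what sets apart cells that have become resistant. The trastuzumab-resistant groups were the pools BT-TR2 and BT-TR1, and the groups resistant to trastuzumab with pertuzumab were the pools BT-TPR2 and BT-TPR1. All 4 pools were kept free of antibody for 7 days before harvest. Parental cells were given trastuzumab and pertuzumab, each at 10 µg/mL, for 3 days (called both antibodies below), or trastuzumab alone at 10 µg/mL for 3 days, or were left untreated. Every group comes from the 1 line BT474, and each pool is a mixed population, so that each kind of resistance is seen in 2 pools. The labels do not say whether the 3 replicates of a group came from separate cultures, so each p-value measures the spread between these libraries, which may be technical.

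Progress into mitosis rests on the kinase CDK1 and its cyclins, whose genes are transcribed late in the cell cycle and are switched off again in early G1 and in resting cells. The DREAM complex holds these genes down in resting cells, and the MuvB core with B-MYB and FOXM1 turns them on, in part through a CHR element in their promoters. Aurora and Polo-like kinases then build the spindle, kinetochore proteins tie chromosomes to it, the spindle checkpoint delays division until every chromosome is tied, and the anaphase-promoting complex (APC/C) ends mitosis by having securin and the cyclins destroyed. Trastuzumab and pertuzumab bind different domains of HER2, and trastuzumab is known to hold BT474 cells in G1. The level of these genes in a culture is widely used as a measure of how many cells divide. In bulk RNA, fewer dividing cells and less RNA of these genes per cell cannot be told apart.

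Total counts ran from 7939270 to 21746391 per library and were lowest in BT-TR1, where they ran from 7939270 to 13432287. The counts of single mitosis genes ran from 117 to 10326. All 9 luminal epithelial markers tested were found, with a summed level of 7690 to 14300 CPM per library, where CPM is the count scaled to the library's total, while the 2 leukocyte markers in the table, of 5 listed, together reached at most 0.205 CPM, 6 fibroblast markers 15.6 to 41.8 CPM and 3 endothelial markers 5.18 to 16.5 CPM. Replicate 1 stood apart: in each of the 7 groups its deviation from the group mean correlated across genes with their GC content at r = 0.313 to 0.627, against -0.537 to 0.0829 in the other 14 libraries. The mean level of the 41 genes was lowest in replicate 1 of every group. The mitosis genes have a median GC content of 43.2%, against 47.6% over 17554 genes tested, and 27 of the 41 lie under that of all genes.

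**Figure D1:**
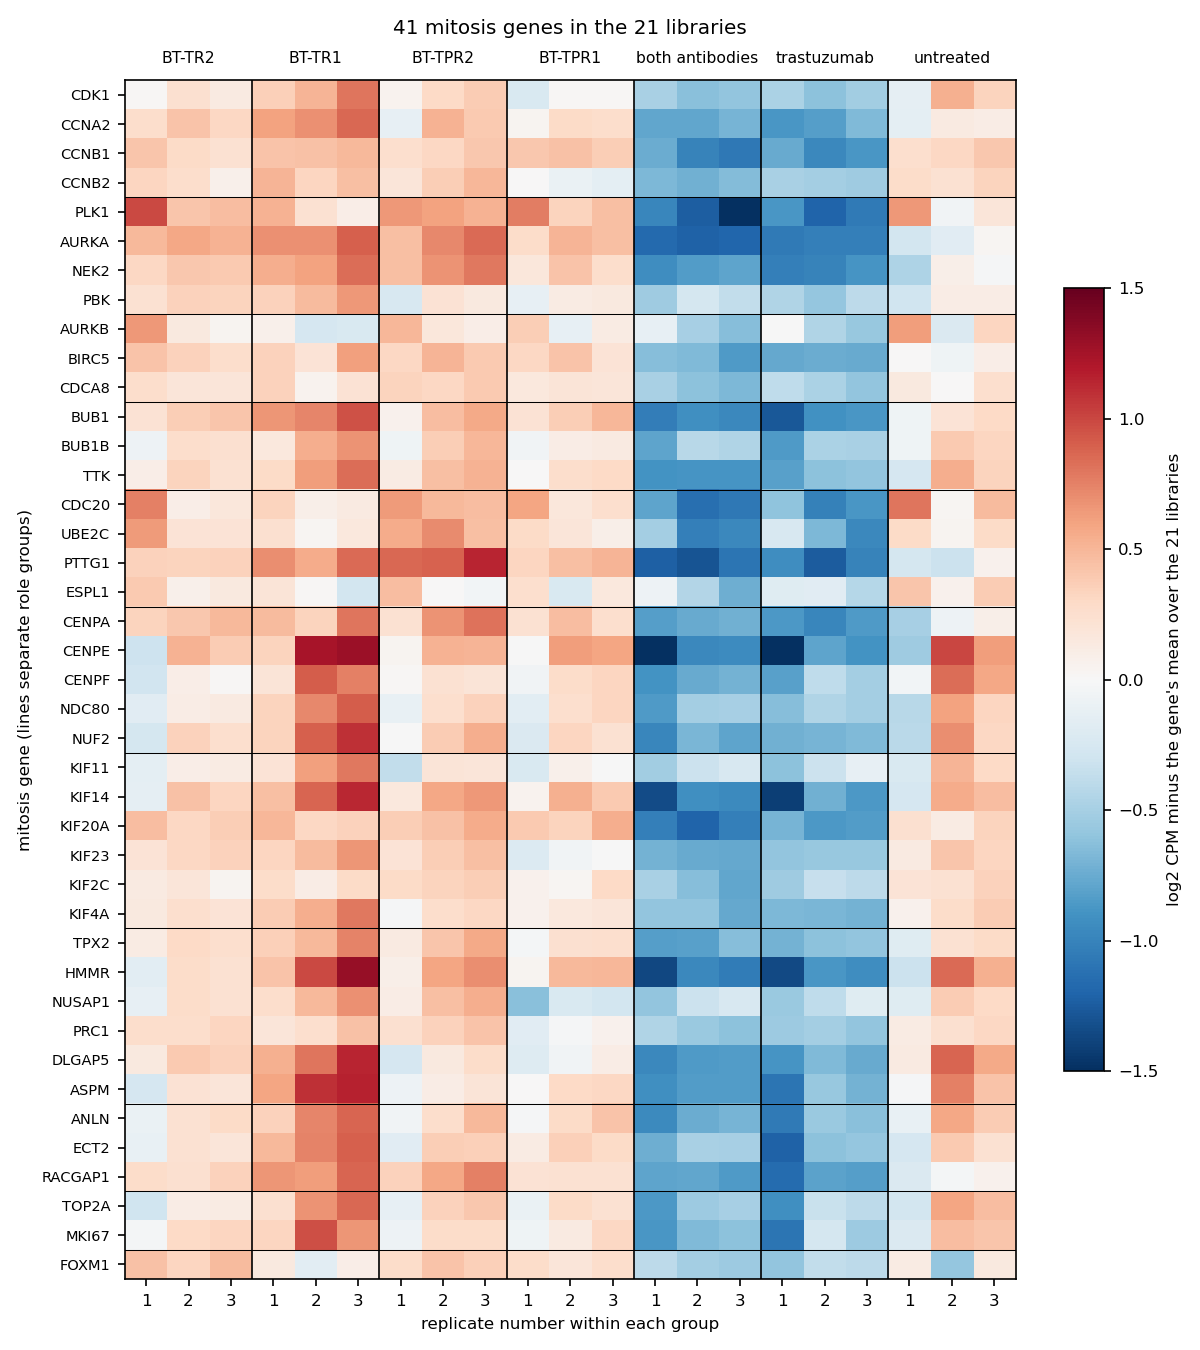
Level of the 41 mitosis genes (rows, grouped by role) in the 21 libraries (columns, 3 replicates in each of 7 groups), as log2 CPM minus each gene's mean over the 21 libraries. The antibody-treated libraries are low for most genes, and replicates 2 and 3 of BT-TR1 are the highest libraries for CENPE and HMMR.

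The mitosis genes were lower as a group after 3 days of antibody. The mean log2 CPM of the 41 genes was 5.10, 5.14 and 5.12 with both antibodies and 5.10, 5.23 and 5.22 with trastuzumab, against 5.85, 6.17 and 6.19 in untreated cells. In the 12 libraries of the pools it lay between 5.96 and 6.56. Every antibody-treated library thus lay below every untreated library and every pool library.

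**Figure D2:**
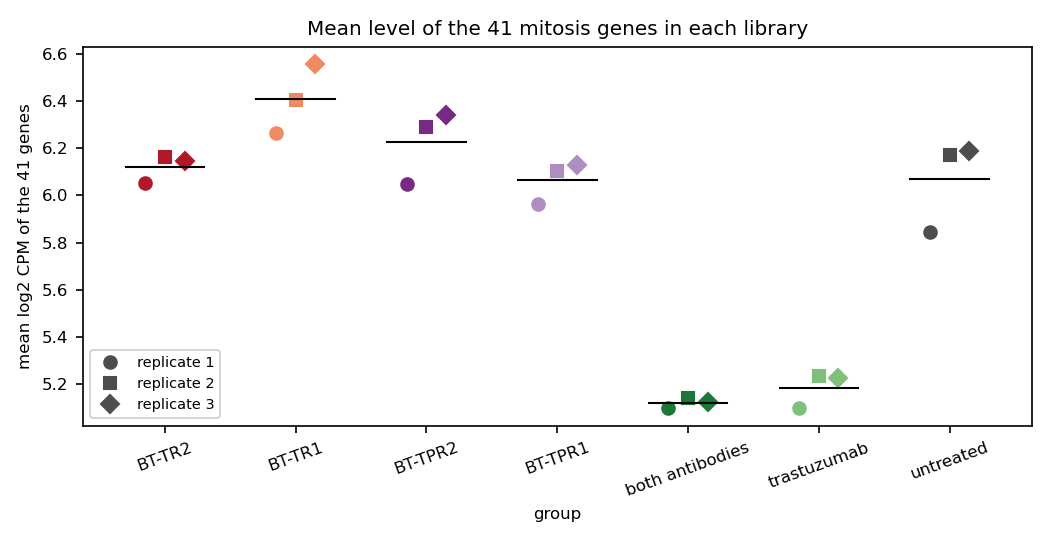
Mean log2 CPM of the 41 mitosis genes in each of the 21 libraries, by group, with 1 symbol per replicate and a line at the mean of the group. The antibody-treated libraries lie between 5.10 and 5.23, and replicate 1 is the lowest library of each group.

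With both antibodies 38 of the 41 genes fell and none rose, at an adjusted p under 0.05 in edgeR's quasi-likelihood test with Benjamini-Hochberg adjustment over the 17650 genes tested. Of all genes tested 12.4% were called, 6.02% lower and 6.39% higher. With trastuzumab 36 genes fell and none rose, where 7.48% of all genes tested were called, 3.78% lower and 3.71% higher. The median log2 fold change of the 41 genes was -0.93 with both antibodies, which is a fold of 0.524, and -0.86 with trastuzumab, which is a fold of 0.551. Over all genes tested it was -0.014 and -0.016. All 41 changes were below 0 in both comparisons, which share the 3 untreated libraries. The range ran from -1.64 to -0.37 with both antibodies and from -1.55 to -0.38 with trastuzumab. In 38 genes with both antibodies and in 38 with trastuzumab every treated library lay below every untreated one, as it did in 14.5% and 12.9% of all genes tested. Called lower in both comparisons were 35 of the 41, and 3.04% of all genes tested. With replicates 2 and 3 alone, 40 genes fell in each comparison, and the share of all genes in that fit is not given here.

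**Figure D3:**
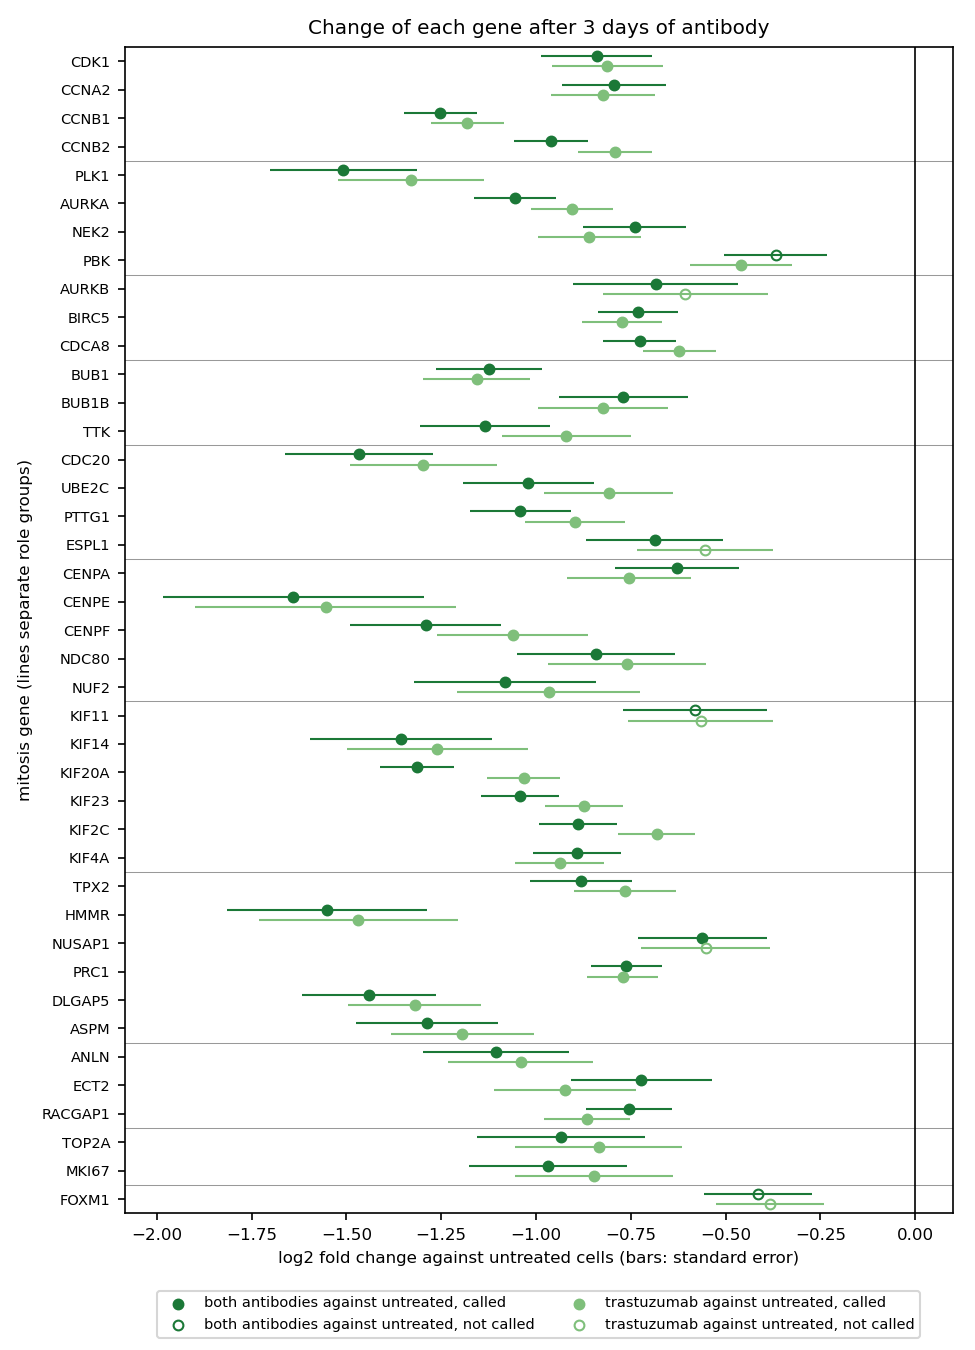
Log2 fold change of each mitosis gene after 3 days of both antibodies (dark green) and of trastuzumab (light green) against untreated cells, by role, with bars of 1 standard error and open symbols for genes not called. All values lie below 0, the lowest in CENPE and the highest in PBK (both antibodies) and FOXM1 (trastuzumab).

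Among the cyclins and CDK1, all 4 genes fell in both comparisons. CDK1, the kinase that starts mitosis, was at 65.7, 59.6 and 61.1 CPM with both antibodies and 66.1, 60.01 and 63.97 CPM with trastuzumab, against 83.8, 134 and 116 CPM in untreated cells. CCNA2, cyclin A2, which acts in S phase and up to early mitosis, was at 24.2, 24.1 and 25.6 CPM with both antibodies and 22.8, 23.5 and 26.2 CPM with trastuzumab, against 37.6, 45.7 and 44.9 CPM in untreated cells. CCNB1, cyclin B1, which activates CDK1, was at 55.7, 46.3 and 44.05 CPM with both antibodies and 55.1, 47.7 and 50.7 CPM with trastuzumab, against 110.5, 115 and 123 CPM in untreated cells. In these 3 genes no treated library reached an untreated one. CCNB1 moved most in the group, by -1.25 ± 0.096 (adjusted p = 7.42e-08) with both antibodies and -1.18 ± 0.096 (adjusted p = 7.76e-07) with trastuzumab (log2 fold change ± SE, 3 libraries a group, edgeR's quasi-likelihood test). CCNB2, a further B-type cyclin, changed by -0.96 and -0.79 on the log2 scale.

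Of the mitotic kinases, PLK1, AURKA and NEK2 fell in both comparisons. PLK1, the Polo-like kinase that matures centrosomes and triggers mitotic entry, was at 17.5, 14.6 and 12.3 CPM with both antibodies and 18.8, 14.9 and 16.5 CPM with trastuzumab, against 54.01, 33.3 and 39.02 CPM in untreated cells. AURKA, the Aurora kinase of the spindle poles, was at 104, 101 and 102 CPM with both antibodies and 112, 114 and 114 CPM with trastuzumab, against 193, 207 and 239 CPM in untreated cells. Both sets of treated libraries lay clear of the untreated ones, and among untreated libraries PLK1 was highest in replicate 1. The log2 fold change of PLK1 was -1.51 ± 0.19 (adjusted p = 3.92e-05) with both antibodies and -1.33 ± 0.19 (adjusted p = 0.000278) with trastuzumab by edgeR's quasi-likelihood test. NEK2, which helps separate centrosomes, changed by -0.74 and -0.86. PBK, a kinase active in mitotic cells, moved least of the kinases. It was at 27.4, 33.1 and 30.8 CPM with both antibodies and 29.1, 26.5 and 30.1 CPM with trastuzumab, against 32.2, 42.7 and 42.9 CPM in untreated cells, and replicate 2 with both antibodies lay above the lowest untreated library. Its change was -0.37 ± 0.14 (adjusted p = 0.0814) with both antibodies, which missed the threshold, and -0.46 ± 0.14 (adjusted p = 0.0445) with trastuzumab, which passed by edgeR's quasi-likelihood test. The trastuzumab call of PBK held in 8 of 32 alternatives and was lost without untreated replicate 2 or 3, without any 1 of the trastuzumab libraries and with RLE scaling, limma or no filter, at adjusted p of up to 0.177. It was also lost when any 1 library of the groups outside the comparison was left out, except BT-TPR2 replicate 1.

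The chromosomal passenger complex corrects faulty attachments at the centromere and later guides cytokinesis. AURKB, its kinase, was at 21.99, 16.9 and 15.3 CPM with both antibodies and 23.7, 17.5 and 16.1 CPM with trastuzumab, against 36.8, 20.5 and 29.9 CPM in untreated cells. Untreated replicate 2 lay below replicate 1 of both treated groups, so the groups overlapped. AURKB passed edgeR's quasi-likelihood test with both antibodies, at -0.68 ± 0.22 (adjusted p = 0.0453), and not with trastuzumab, at -0.61 ± 0.22 (adjusted p = 0.0993). The call held in 19 of 32 alternatives and was lost without untreated replicate 1 or 3, without replicate 2 or 3 of both antibodies and with limma, at adjusted p of up to 0.203. It was also lost without replicate 2 of trastuzumab, replicate 2 or 3 of BT-TR1, replicate 2 of BT-TR2, replicate 3 of BT-TPR1 or replicate 2 or 3 of BT-TPR2. BIRC5, survivin, which anchors the complex, was at 30.5, 29.9 and 26.3 CPM with both antibodies and 27.7, 28.3 and 28.1 CPM with trastuzumab, against 47.6, 45.4 and 50.8 CPM in untreated cells. CDCA8, borealin, was at 28.6, 26.1 and 25.2 CPM with both antibodies and 30.7, 28.7 and 26.5 CPM with trastuzumab, against 44.5, 40.2 and 47.6 CPM in untreated cells. Neither gene had a treated library that reached an untreated one, and CDCA8 fell by 0.73 with both antibodies and by 0.62 with trastuzumab on the log2 scale.

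All 3 spindle checkpoint genes fell in both comparisons. BUB1, a kinase of the checkpoint that sits on kinetochores, was at 27.5, 29.9 and 28.8 CPM with both antibodies and 23.4, 30.01 and 30.8 CPM with trastuzumab, against 53.9, 64.95 and 69.1 CPM in untreated cells. TTK, the checkpoint kinase also called MPS1, was at 25.3, 25.5 and 25.6 CPM with both antibodies and 26.8, 30.7 and 31.3 CPM with trastuzumab, against 39.5, 68.9 and 59.4 CPM in untreated cells. In both genes the treated libraries lay well below the untreated ones, of which replicate 1 was the lowest. TTK changed by -1.14 ± 0.17 (adjusted p = 0.000197) with both antibodies and by -0.92 ± 0.17 (adjusted p = 0.00227) with trastuzumab by edgeR's quasi-likelihood test. BUB1B, BubR1, changed by -0.77 and -0.82.

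Among the genes of anaphase and cyclin destruction, CDC20, UBE2C and PTTG1 fell in both comparisons. CDC20, which activates the APC/C, was at 20.9, 16.6 and 17.2 CPM with both antibodies and 23.8, 17.9 and 19.8 CPM with trastuzumab, against 63.5, 36.97 and 50.5 CPM in untreated cells. UBE2C, the ubiquitin-conjugating enzyme that works with the APC/C, was at 19.6, 13.7 and 14.3 CPM with both antibodies and 23.5, 17.5 and 14.2 CPM with trastuzumab, against 33.95, 28.6 and 34.03 CPM in untreated cells. PTTG1, securin, which the APC/C removes to free separase, was at 6.49, 6.18 and 7.11 CPM with both antibodies and 7.91, 6.35 and 7.58 CPM with trastuzumab, against 12.6, 12.2 and 15.9 CPM in untreated cells. The treated libraries of all 3 genes lay below the untreated ones, and untreated CDC20 was highest in replicate 1 and lowest in replicate 2. The call of UBE2C with trastuzumab was lost without trastuzumab replicate 3, at adjusted p of up to 0.0627 over the alternatives. CDC20 had the largest change of the 4, -1.47 ± 0.20 (adjusted p = 5.39e-05) with both antibodies and -1.30 ± 0.19 (adjusted p = 0.000349) with trastuzumab by edgeR's quasi-likelihood test. ESPL1, separase, the protease that cuts cohesin, was at 40.1, 31.1 and 25.4 CPM with both antibodies and 37.1, 37.5 and 31.3 CPM with trastuzumab, against 56.4, 44.1 and 55.1 CPM in untreated cells. Its groups did not overlap. With trastuzumab it missed the threshold of edgeR's quasi-likelihood test, at -0.55 ± 0.18 (adjusted p = 0.0679), and with both antibodies it passed, at -0.69 ± 0.18 (adjusted p = 0.0171), a call lost without untreated replicate 1 or 3 or replicate 2 or 3 of both antibodies, at adjusted p of up to 0.11.

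The 5 kinetochore and centromere genes fell in both comparisons. CENPE, the kinesin that carries chromosomes along microtubules to the spindle equator, was at 14.8, 22.8 and 23.2 CPM with both antibodies and 14.6, 25.9 and 23.98 CPM with trastuzumab, against 30.9, 89.5 and 69.3 CPM in untreated cells. CENPA, the histone variant that marks centromeres, was at 8.52, 8.996 and 9.20 CPM with both antibodies and 8.36, 7.72 and 8.38 CPM with trastuzumab, against 10.8, 14.4 and 16.1 CPM in untreated cells. NDC80, a subunit of the complex that binds microtubules, was at 30.9, 38.95 and 39.3 CPM with both antibodies and 35.7, 40.6 and 39.1 CPM with trastuzumab, against 41.7, 84.3 and 69.6 CPM in untreated cells. Replicate 1 of CENPE was the lowest library in all 3 groups, and the lowest untreated library still lay above the highest treated one. CENPE had the largest change of the 41 genes and the largest error, -1.64 ± 0.34 (adjusted p = 0.0038) with both antibodies and -1.55 ± 0.34 (adjusted p = 0.00854) with trastuzumab by edgeR's quasi-likelihood test. Without untreated replicate 2 or without trastuzumab replicate 1 its call with trastuzumab was lost, at adjusted p of up to 0.0688, and its GC content, 35.3%, was the lowest of the 41. CENPF, a large kinetochore protein, changed by -1.29 and -1.06, and NUF2, the partner of NDC80, by -1.08 and -0.97. With both antibodies the call of CENPA held in 26 and that of NDC80 in 29 of 32 alternatives, and both were lost without untreated replicate 2 or replicate 1 of both antibodies, that of CENPA also without untreated replicate 3 or replicate 2 of both antibodies, at adjusted p of up to 0.0834 and 0.0927. That of NUF2 was lost without untreated replicate 2, at 0.0525. With trastuzumab the calls of NDC80 and NUF2 held in 24 and 26 alternatives and were lost without untreated replicate 2 or 3 or any 1 of the trastuzumab libraries, at adjusted p of up to 0.188 and 0.134.

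Of the 6 kinesin motors, 5 fell in both comparisons. KIF11, also called Eg5, which pushes the spindle poles apart, was at 60.9, 69.8 and 73.9 CPM with both antibodies and 56.9, 69.98 and 79.8 CPM with trastuzumab, against 74.7, 124 and 108 CPM in untreated cells. KIF20A, a motor of the central spindle needed in cytokinesis, was at 32.3, 28.4 and 32.2 CPM with both antibodies and 40.4, 35.9 and 36.5 CPM with trastuzumab, against 77.3, 71 and 82.5 CPM in untreated cells. KIF14, another motor of cytokinesis, was at 6.87, 9.19 and 8.96 CPM with both antibodies and 6.56, 10.6 and 9.61 CPM with trastuzumab, against 14.6, 25.6 and 23.9 CPM in untreated cells. KIF14 and KIF20A did not overlap between treated and untreated libraries. In KIF11, trastuzumab replicate 3 lay above untreated replicate 1. KIF14 led the group with -1.36 ± 0.24 (adjusted p = 0.000855) with both antibodies and -1.26 ± 0.24 (adjusted p = 0.00264) with trastuzumab by edgeR's quasi-likelihood test. KIF11 alone was called in neither comparison, with -0.58 ± 0.19 (adjusted p = 0.0522) and -0.57 ± 0.19 (adjusted p = 0.0779) by the same edgeR test. KIF23, KIF2C and KIF4A changed by -1.04 to -0.89 with both antibodies and by -0.94 to -0.68 with trastuzumab.

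Among the spindle microtubule proteins, HMMR fell most. HMMR, which binds spindle microtubules and hyaluronan, was at 19.2, 25.1 and 23.8 CPM with both antibodies and 19.3, 26.9 and 25.9 CPM with trastuzumab, against 39.5, 88.7 and 71.5 CPM in untreated cells. TPX2, which activates AURKA and seeds microtubules, was at 137, 138 and 156 CPM with both antibodies and 148, 158 and 161 CPM with trastuzumab, against 214, 285 and 294 CPM in untreated cells. Both genes were lower in every treated library, and replicate 1 of HMMR was the lowest of each group. The change of HMMR was -1.55 ± 0.26 (adjusted p = 0.000611) with both antibodies and -1.47 ± 0.26 (adjusted p = 0.00172) with trastuzumab by edgeR's quasi-likelihood test. DLGAP5, ASPM and PRC1, which bundle or anchor spindle microtubules, also fell in both comparisons, by 1.44, 1.29 and 0.76 with both antibodies on the log2 scale. NUSAP1, a microtubule-stabilizing protein, was called with both antibodies at -0.56 ± 0.17 (adjusted p = 0.0356) and not with trastuzumab at -0.55 ± 0.17 (adjusted p = 0.0531), by edgeR's quasi-likelihood test, although no treated library lay above an untreated one. Its trastuzumab replicate 3 stood level with untreated replicate 1. The call of NUSAP1 with both antibodies held in 19 of 32 alternatives and was lost without untreated replicate 2 or 3 and without any 1 of the libraries with both antibodies, at adjusted p of up to 0.161. It was also lost without replicate 2 of any other group.

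The 3 cytokinesis genes and the 2 genes of mitotic chromosomes fell in both comparisons. ANLN, anillin, the scaffold of the contractile ring, was at 98.8, 114 and 118 CPM with both antibodies and 91.8, 129.5 and 124 CPM with trastuzumab, against 176, 285 and 248 CPM in untreated cells. ECT2 and RACGAP1, which switch on the ring's GTPase, changed by -0.72 and -0.76 with both antibodies and by -0.92 and -0.87 with trastuzumab. TOP2A, the topoisomerase that untangles sister chromosomes, was at 187, 234 and 241 CPM with both antibodies and 179.9, 270.0 and 259.6 CPM with trastuzumab, against 282, 514 and 468 CPM in untreated cells. MKI67, which encodes the proliferation marker Ki-67, was at 65.9, 76.3 and 78.8 CPM with both antibodies and 56.5, 101 and 82.96 CPM with trastuzumab, against 104, 167 and 161 CPM in untreated cells. No treated library of these genes reached an untreated one, although trastuzumab replicate 2 came close to untreated replicate 1 in TOP2A and MKI67. MKI67 changed by -0.97 ± 0.21 (adjusted p = 0.00441) with both antibodies and by -0.85 ± 0.21 (adjusted p = 0.0172) with trastuzumab by edgeR's quasi-likelihood test. With trastuzumab the calls of MKI67 and TOP2A each held in 26 of 32 alternatives and were lost with scaling to library size alone and without untreated replicate 2 or 3 or trastuzumab replicate 1 or 3, at adjusted p of up to 0.0964 and 0.141. With both antibodies TOP2A lost its call without untreated replicate 2, at 0.0602, and ECT2 without untreated replicate 2 or replicate 1 of both antibodies, at up to 0.0953.

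FOXM1, the only transcription factor of the 41 genes, which activates many of the others, was at 51.3, 47.3 and 45.95 CPM with both antibodies and 44.7, 51.9 and 51.2 CPM with trastuzumab, against 73.2, 45.04 and 74.5 CPM in untreated cells. Its treated libraries overlapped the untreated group at untreated replicate 2, which stood well below the other untreated libraries. Its change was -0.42 ± 0.14 (adjusted p = 0.0625) with both antibodies and -0.38 ± 0.14 (adjusted p = 0.111) with trastuzumab, with neither passing edgeR's quasi-likelihood test. Without untreated replicate 2 both passed, at -0.60 and -0.57 (adjusted p = 0.00143 and 0.00394 in the same edgeR test).

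Libraries of the same replicate number deviated together between trastuzumab-treated and untreated cells. The labels give no pairing, and pairing cannot be told apart from the deviation that replicate 1 shows in every group. With replicate number as a block AURKB, ESPL1, KIF11, NUSAP1 and FOXM1 were also called lower with trastuzumab, at adjusted p of 0.000255, 0.0011, 9.79e-05, 2.36e-05 and 0.0233 in edgeR's quasi-likelihood test. In that fit all 41 genes fell, and the share of all genes called in it is not given here. The calls of 30 of the 38 genes with both antibodies and of 26 of the 36 with trastuzumab held in all 32 alternatives.

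The promoters of 33 of the 41 genes were found in a RefSeq table of build GRCh38.p14 that gives 250 bases before and 50 after each gene's start. TPX2, RACGAP1, TTK, FOXM1, AURKA, PBK, BIRC5 and UBE2C had no entry there. The core letters of the CHR element, TTTGAA, stood on either strand in 24 of the 33 promoters (72.7%) and in 15.2% of the 35116 promoters of the table. The letters of the CCAAT box, the site bound by NF-Y, stood on either strand in 27 of the 33 (81.8%) and in 34.6% of all, and both stood in 20 of the 33 (60.6%) and in 5.9% of all. These motifs and the promoters shown were chosen after the changes were known, and a match is a description of letters, not of a bound site. The 120 bases before the RefSeq start are shown for PLK1, CDC20 and HMMR, which fell much with antibody, for CCNB2, PRC1 and CENPA, which are described in the pools below, and for CENPE, in the gene's own direction, with both motifs in capitals, on either strand.
PLK1: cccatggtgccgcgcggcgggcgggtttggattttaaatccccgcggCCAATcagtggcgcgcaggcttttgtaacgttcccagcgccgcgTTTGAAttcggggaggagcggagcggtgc
CDC20: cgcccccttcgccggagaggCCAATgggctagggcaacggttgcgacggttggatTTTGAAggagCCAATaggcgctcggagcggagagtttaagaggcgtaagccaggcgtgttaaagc
HMMR: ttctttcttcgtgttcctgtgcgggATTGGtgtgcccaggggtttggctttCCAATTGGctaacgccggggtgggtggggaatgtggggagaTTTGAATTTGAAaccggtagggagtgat
CCNB2: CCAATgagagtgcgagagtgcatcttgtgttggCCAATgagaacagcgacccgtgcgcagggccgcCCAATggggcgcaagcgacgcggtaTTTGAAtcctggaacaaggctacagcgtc
PRC1: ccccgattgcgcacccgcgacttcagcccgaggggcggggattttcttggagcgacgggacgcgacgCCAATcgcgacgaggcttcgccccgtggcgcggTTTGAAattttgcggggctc
CENPA: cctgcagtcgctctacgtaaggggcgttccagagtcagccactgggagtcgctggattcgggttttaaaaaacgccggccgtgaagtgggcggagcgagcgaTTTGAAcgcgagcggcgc
CENPE: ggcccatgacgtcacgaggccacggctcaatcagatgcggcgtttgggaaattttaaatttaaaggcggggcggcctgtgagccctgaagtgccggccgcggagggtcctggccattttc
They lie at chr16:23678769-23678888, chr1:43358861-43358980, chr5:163460512-163460631, chr15:59105026-59105145 and chr2:26785936-26786055 on the plus strand and at chr15:90994536-90994655 and chr4:103198344-103198463 on the minus strand of GRCh38.p14. CDC20 holds 2 CCAAT boxes, 1 on each side of the CHR core. CCNB2 holds 3 CCAAT boxes before its core. HMMR holds 2 copies of the core joined end to end. CENPE, last in the list and the gene that fell most, holds neither set of letters in this window. The median log2 fold change with both antibodies was -0.95 over the 24 genes with TTTGAA (-1.55 to -0.56) and -1.04 over the 9 without it (-1.64 to -0.68). The ranges of both sets overlap over most of their length.

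Adding pertuzumab to trastuzumab moved none of the 41 genes past the threshold. The median log2 fold change of both antibodies against trastuzumab was -0.084 over the 41 genes, against -0.0020 over all genes tested, and 30 of the 41 were below 0. In edgeR's quasi-likelihood test none was called, where 0.867% of all genes tested were called, 0.38% lower and 0.487% higher. The smallest adjusted p was 0.403, and 1 of the 41, KIF20A at -0.28 ± 0.097, had an unadjusted p under 0.05. DESeq2 and limma called none either. The 95% intervals of the 41 differences ran from -0.80 to 0.63 at their widest bounds, and the medians of their lower and upper bounds were -0.41 and 0.29. In 5 of the 41 genes every library with both antibodies lay below every library with trastuzumab and in 1 gene above, against 5.03% and 4.94% of all genes tested. The libraries of PLK1, at 17.5, 14.6 and 12.3 CPM with both antibodies and 18.8, 14.9 and 16.5 CPM with trastuzumab, overlapped.

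The resistant pools, grown without antibody, had mitosis genes nearer to the untreated level than to that of antibody-treated cells. In BT-TR1 the mean log2 CPM of the 41 genes was above every untreated library in all 3 libraries, at 6.27 to 6.56 against 5.85 to 6.19 in untreated cells, and in the other 3 pools it overlapped the untreated range. The comparisons with untreated cells share the same 3 untreated libraries, so their values are given side by side. In BT-TR2, 7 of the 41 genes rose and 1 fell, where 12.7% of all genes tested were called higher and 12.1% lower, with a median log2 fold change of -0.042 against -0.0024 over all genes tested. In BT-TR1, 13 rose and none fell, beside 43.6% of all genes tested called, 21.3% higher and 22.3% lower, with a median of 0.33 against -0.0096. In BT-TPR2, 7 rose and 1 fell, beside 15.6% higher and 16.0% lower, with a median of 0.067 against -0.0098. In BT-TPR1, 5 rose and 5 fell, beside 12.9% higher and 14.4% lower, with a median of -0.069 against -0.0027. Shares of 7 or 5 of 41 higher are near the background of all genes. The shares lower in BT-TR2, BT-TR1 and BT-TPR2, 1, 0 and 1 of 41, were under that background, and the 13 of 41 higher in BT-TR1 were above it. With libraries corrected for GC content 9 of the 41 were higher in BT-TR1, so that excess depends on the fit. Of the 41 genes, 21 were called in no pool, as were 38.1% of all genes tested.

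These counts moved with the fit. The shares of all genes given above belong to the main fit. Those of the other fits are not given here, so the counts below have no background beside them. Libraries of the same number deviated together in these 4 comparisons, although in BT-TR1, BT-TPR2 and BT-TPR1 not every library correlated best with its own number. With replicate number as a block, 10 genes rose and 3 fell in BT-TR2, 28 rose and 3 fell in BT-TR1, 15 rose and 3 fell in BT-TPR2, and 10 rose and 8 fell in BT-TPR1. With replicates 2 and 3 alone they were 7 up and 8 down in BT-TR2, 23 up and none down in BT-TR1, 12 up and 4 down in BT-TPR2, and 4 up and 9 down in BT-TPR1. With scaling to library size alone 6 rose in BT-TR2, 9 in BT-TPR2 and 7 in BT-TPR1 and none fell. That scaling moved the median of all genes in BT-TPR1 to 0.14. In BT-TR1, 22 genes were called without untreated replicate 2 and 23 without its own replicate 1. In BT-TR2, 4 were called without untreated replicate 2, and 5, 3 and 4 without its own replicate 1, 2 and 3. In BT-TPR2, 5 were called without its replicate 2. In BT-TPR1, 4 were called without untreated replicate 2 or its own replicate 1, and 5 without its replicate 2.

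**Figure D4:**
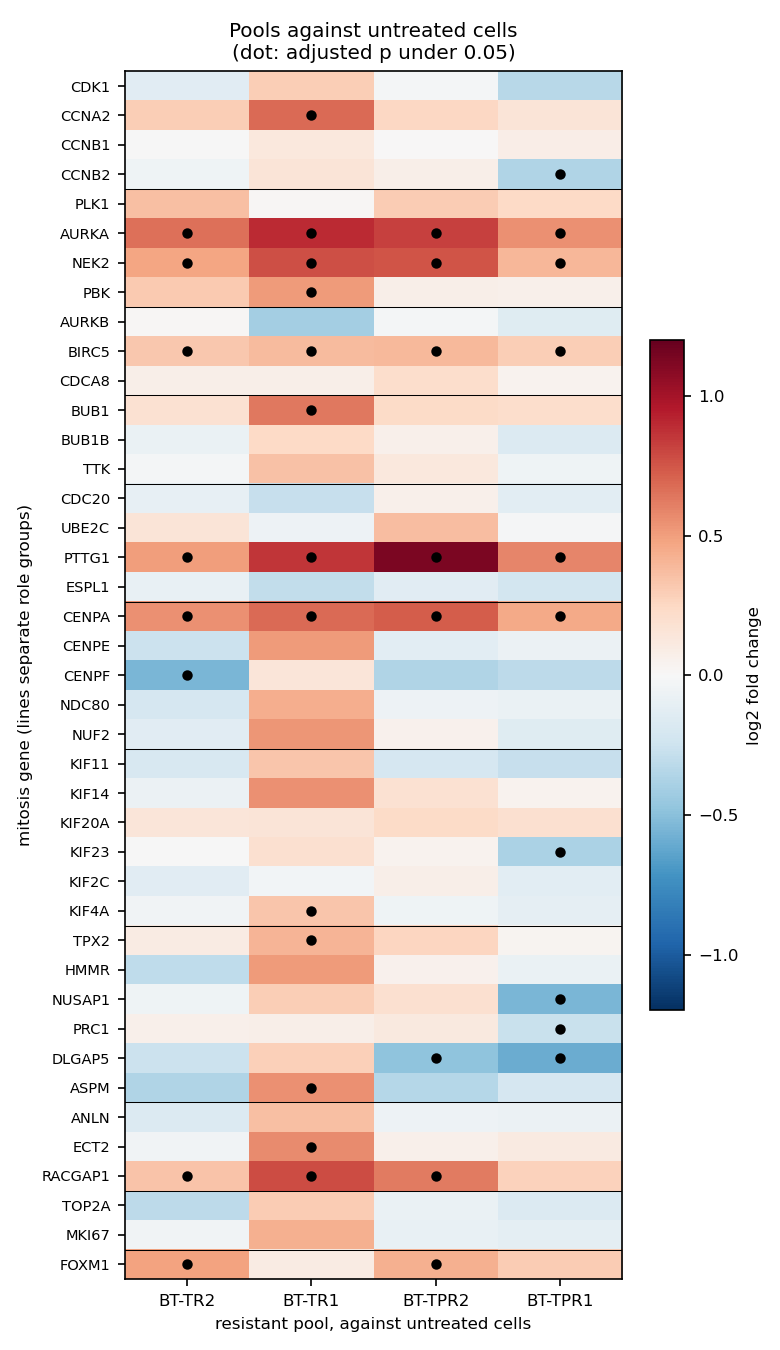
Log2 fold change of each mitosis gene (rows, grouped by role) in the 4 resistant pools against untreated cells, with a dot where the adjusted p was under 0.05. AURKA, NEK2, BIRC5, PTTG1 and CENPA carry a dot in all 4 pools, and the 5 dots on blue in BT-TPR1 are CCNB2, KIF23, NUSAP1, PRC1 and DLGAP5.

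AURKA, NEK2, BIRC5, PTTG1 and CENPA rose in all 4 pools. That pattern held for 5.42% of all genes tested, and none of the 41 was called lower in all 4 pools. AURKA was at 327, 349 and 335 CPM in BT-TR2, 376, 375 and 434 CPM in BT-TR1, 318, 386 and 422 CPM in BT-TPR2 and 281, 331 and 319 CPM in BT-TPR1, against 193, 207 and 239 CPM in untreated cells. PTTG1 was at 19.2, 19.1 and 19.2 CPM in BT-TR2, 24.6, 22.2 and 27.2 CPM in BT-TR1, 27.4, 27.9 and 33.5 CPM in BT-TPR2 and 18.9, 20.7 and 21.6 CPM in BT-TPR1, against 12.6, 12.2 and 15.9 CPM in untreated cells. CENPA was at 19.1, 20.1 and 21.2 CPM in BT-TR2, 20.99, 19.1 and 26.5 CPM in BT-TR1, 17.7, 24.1 and 26.7 CPM in BT-TPR2 and 17.7, 20.8 and 18.01 CPM in BT-TPR1, against 10.8, 14.4 and 16.1 CPM in untreated cells. In these 3 genes every pool library lay above every untreated one, as in 19.7% of all genes tested in BT-TR2, 24.4% in BT-TR1, 18.9% in BT-TPR2 and 20.7% in BT-TPR1. AURKA changed by 0.66 ± 0.11 in BT-TR2, 0.89 ± 0.11 in BT-TR1, 0.82 ± 0.11 in BT-TPR2 and 0.55 ± 0.11 in BT-TPR1 (log2 fold change ± SE), with adjusted p from 5.46e-06 to 0.000954 in edgeR's quasi-likelihood test. Its call held in all 32 alternatives in each pool. PTTG1 changed by 0.50 ± 0.13, 0.86 ± 0.13, 1.12 ± 0.13 and 0.59 ± 0.13 in the same pools, with adjusted p from 2.36e-06 to 0.00803 in edgeR's quasi-likelihood test. CENPA changed by 0.55 ± 0.16, 0.68 ± 0.16, 0.73 ± 0.16 and 0.45 ± 0.16, with adjusted p from 0.00183 to 0.0418 in that edgeR test.

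The other 2 shared genes were BIRC5 and NEK2. BIRC5 was at 63.5, 59.9 and 56.9 CPM in BT-TR2, 60.3, 54.6 and 72.2 CPM in BT-TR1, 58.9, 67.5 and 61.9 CPM in BT-TPR2 and 58.6, 63.5 and 54.6 CPM in BT-TPR1, against 47.6, 45.4 and 50.8 CPM in untreated cells. Each pool library again lay above each untreated one. BIRC5 changed by 0.30 to 0.39 on the log2 scale, with adjusted p from 0.00777 to 0.0409 in edgeR's quasi-likelihood test. NEK2 was at 27.2, 29.04 and 28.9 CPM in BT-TR2, 31.97, 33.3 and 39.3 CPM in BT-TR1, 29.96, 35.2 and 37.98 CPM in BT-TPR2 and 24.7, 29.6 and 26.3 CPM in BT-TPR1, against 15.99, 23.4 and 21.6 CPM in untreated cells, with each pool library above each untreated one. It changed by 0.40 to 0.77, with adjusted p from 0.00023 to 0.0315 in that edgeR test. In BT-TPR1 the call of CENPA held in 18 and that of BIRC5 in 19 of 32 alternatives, and both were lost without untreated replicate 1 or 2 or BT-TPR1 replicate 1 or 2, that of CENPA also without BT-TPR1 replicate 3, with adjusted p of at most 0.178 and 0.258. The BT-TPR1 call of NEK2 was lost without untreated replicate 1 or BT-TPR1 replicate 2 or 3, at up to 0.162. In BT-TPR2 that of BIRC5 was lost without BT-TPR2 replicate 2, at up to 0.0618 over the alternatives. In BT-TR2 the call of BIRC5 held in 24 of 32 and was lost with the GC correction and without untreated replicate 1 or 2 or BT-TR2 replicate 1 or 2, at up to 0.192. There CENPA lost its call without untreated replicate 1 or BT-TR2 replicate 2 or 3, and NEK2 without untreated replicate 1 or BT-TR2 replicate 2, at up to 0.0813 and 0.0931.

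The exons of CENPA overlap those of SLC35F6 on the same strand, and SLC35F6 holds 24735 counts over all libraries against 5752 for CENPA. SLC35F6 itself changed by -0.20 in BT-TR2, -0.22 in BT-TR1, -0.26 in BT-TPR2 and -0.39 in BT-TPR1 and was called in none. PTTG1 has near-identical copies, PTTG2 and PTTG3P, with 48 to 318 and 41 to 331 counts per library, which rose in all 4 pools as well, by 0.62 to 1.38 and by 0.69 to 1.39. How the reads of PTTG1 and its copies were divided was not tested. The exons of 14 of the 41 genes overlap another gene, among them KIF20A with BRD8 and CDC23, CCNA2 with EXOSC9, FOXM1 with ITFG2, ANLN with KIAA0895 and KIF4A with PDZD11, all on opposite strands. PDZD11 was called higher in all 4 pools, by 0.97 in BT-TR2, 0.73 in BT-TR1, 0.90 in BT-TPR2 and 0.58 in BT-TPR1. In BT-TR1, where KIF4A rose, KIAA0895 and CDC23 were also called higher, by 0.85 and 0.45. There ITFG2 was called lower, by 0.65, and BRD8 and EXOSC9 were not called. Whether counting used strand is not given in the sources used here, so reads of overlapping pairs cannot be told apart.

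Of the cyclins and CDK1, CCNA2 rose in BT-TR1 and CCNB2 fell in BT-TPR1. CDK1 was at 93.3, 109 and 101 CPM in BT-TR2, 118, 130.5 and 160.0 CPM in BT-TR1, 95.1, 113 and 119.7 CPM in BT-TPR2 and 78.4, 92.8 and 92.9 CPM in BT-TPR1, against 83.8, 134 and 116 CPM in untreated cells. CCNA2 was at 49.8, 55.8 and 51.5 CPM in BT-TR2, 62.9, 66.9 and 75.5 CPM in BT-TR1, 38.2, 59.5 and 54.5 CPM in BT-TPR2 and 42.7, 50.5 and 49.8 CPM in BT-TPR1, against 37.6, 45.7 and 44.9 CPM in untreated cells. CCNB1 was at 124, 114 and 109 CPM in BT-TR2, 124, 126 and 130.0 CPM in BT-TR1, 110.4, 116 and 123 CPM in BT-TPR2 and 122, 126 and 119.8 CPM in BT-TPR1, against 110.5, 115 and 123 CPM in untreated cells. CDK1 and CCNB1 overlapped the untreated libraries in each pool, except that every BT-TR1 library of CCNB1 lay above them. CCNA2 changed by 0.68 ± 0.14 (adjusted p = 0.000793) in BT-TR1 by edgeR's quasi-likelihood test, and every library of BT-TR1 and of BT-TR2 lay above every untreated one.

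Among the kinases and the checkpoint, PLK1 was at 68.7, 45.9 and 47.3 CPM in BT-TR2, 49.6, 40.5 and 36.95 CPM in BT-TR1, 53.9, 52.3 and 49.5 CPM in BT-TPR2 and 58.8, 43.5 and 46.9 CPM in BT-TPR1, against 54.01, 33.3 and 39.02 CPM in untreated cells. AURKB was at 37.3, 26.3 and 24.6 CPM in BT-TR2, 25.1, 20.01 and 20.3 CPM in BT-TR1, 33.6, 26.8 and 25.5 CPM in BT-TPR2 and 30.9, 21.8 and 26.1 CPM in BT-TPR1, against 36.8, 20.5 and 29.9 CPM in untreated cells. CDCA8 was at 48.1, 45.5 and 45.5 CPM in BT-TR2, 51.03, 41.6 and 46.5 CPM in BT-TR1, 50.5, 49.8 and 52.8 CPM in BT-TPR2 and 44.5, 45.9 and 45.4 CPM in BT-TPR1, against 44.5, 40.2 and 47.6 CPM in untreated cells. None of these 3 genes was called in a pool, and they overlapped the untreated libraries except CDCA8 in BT-TPR2, which lay above them. BUB1 was at 65.6, 72.8 and 75.3 CPM in BT-TR2, 89.2, 93.96 and 109 CPM in BT-TR1, 58.8, 77.8 and 83.5 CPM in BT-TPR2 and 65.5, 72.8 and 79.4 CPM in BT-TPR1, against 53.9, 64.95 and 69.1 CPM in untreated cells. TTK was at 50.5, 59.3 and 55.1 CPM in BT-TR2, 57.8, 72.99 and 84.5 CPM in BT-TR1, 51.2, 64.4 and 67.6 CPM in BT-TPR2 and 47.5, 56.7 and 57.9 CPM in BT-TPR1, against 39.5, 68.9 and 59.4 CPM in untreated cells. BUB1 rose in BT-TR1, by 0.64 ± 0.14 (adjusted p = 0.00144) in edgeR's quasi-likelihood test, and TTK was called in no pool. PBK also rose in BT-TR1, by 0.51 ± 0.14 (adjusted p = 0.00604) in that edgeR test.

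Of the anaphase genes other than PTTG1, CDC20 was at 61.4, 38.7 and 40.7 CPM in BT-TR2, 45.8, 38.6 and 39.7 CPM in BT-TR1, 56.6, 50.8 and 49.9 CPM in BT-TPR2 and 54.7, 40.7 and 43.1 CPM in BT-TPR1, against 63.5, 36.97 and 50.5 CPM in untreated cells. UBE2C was at 43.4, 32.2 and 32 CPM in BT-TR2, 32.8, 28.5 and 31.1 CPM in BT-TR1, 41.1, 45.4 and 37.98 CPM in BT-TPR2 and 34.1, 31.7 and 29.6 CPM in BT-TPR1, against 33.95, 28.6 and 34.03 CPM in untreated cells. ESPL1 was at 55.4, 44.4 and 46.8 CPM in BT-TR2, 48.2, 42.9 and 34.97 CPM in BT-TR1, 58.2, 42.2 and 41.2 CPM in BT-TPR2 and 50.2, 35.9 and 47.2 CPM in BT-TPR1, against 56.4, 44.1 and 55.1 CPM in untreated cells. None was called in a pool. CDC20 and ESPL1 overlapped the untreated libraries in all 4 pools, and UBE2C did so in all but BT-TPR2, which lay above them. The 4 changes of ESPL1 ran from -0.30 to -0.085.

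At the kinetochore, CENPE was at 36.2, 64.4 and 58.2 CPM in BT-TR2, 56.2, 106 and 109 CPM in BT-TR1, 45.9, 64.1 and 63.7 CPM in BT-TPR2 and 44.5, 69.2 and 67.2 CPM in BT-TPR1, against 30.9, 89.5 and 69.3 CPM in untreated cells. NDC80 was at 49.2, 59.9 and 60.8 CPM in BT-TR2, 69.8, 91.2 and 104 CPM in BT-TR1, 51.5, 65.96 and 70.6 CPM in BT-TPR2 and 49.8, 66.3 and 69.2 CPM in BT-TPR1, against 41.7, 84.3 and 69.6 CPM in untreated cells. Both overlapped the untreated libraries in every pool, and replicates 2 and 3 of BT-TR1 were the highest libraries. CENPF alone fell in BT-TR2, with a change of -0.55 ± 0.20 (adjusted p = 0.0463) in edgeR's quasi-likelihood test, a call that held in 12 of 32 alternatives. It was lost without any 1 of the BT-TR2 libraries and without untreated replicate 2 or 3, with an adjusted p of at most 0.268.

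Among the motors and spindle proteins, KIF11 was at 79.05, 93.8 and 95.1 CPM in BT-TR2, 101, 134 and 151 CPM in BT-TR1, 67.2, 99.5 and 99.02 CPM in BT-TPR2 and 74.3, 92.2 and 86.9 CPM in BT-TPR1, against 74.7, 124 and 108 CPM in untreated cells. KIF14 was at 15.8, 23.5 and 21.7 CPM in BT-TR2, 23.8, 32.02 and 38.1 CPM in BT-TR1, 19.5, 26 and 27.3 CPM in BT-TPR2 and 18.1, 25.2 and 22.9 CPM in BT-TPR1, against 14.6, 25.6 and 23.9 CPM in untreated cells. KIF20A was at 90.2, 80.9 and 84.2 CPM in BT-TR2, 92.1, 81.4 and 83.4 CPM in BT-TR1, 84.8, 88.98 and 96.2 CPM in BT-TPR2 and 85.95, 82.5 and 95.8 CPM in BT-TPR1, against 77.3, 71 and 82.5 CPM in untreated cells. None was called in a pool, although every BT-TPR2 and BT-TPR1 library of KIF20A lay above every untreated one. The closest pair was 82.55 CPM in BT-TPR1 against 82.48 CPM in untreated cells. Replicate 1 was the lowest library of KIF11 and KIF14 in each pool. HMMR was at 44.02, 59.4 and 57.8 CPM in BT-TR2, 66.01, 97.6 and 122 CPM in BT-TR1, 52.2, 74.4 and 79.7 CPM in BT-TPR2 and 50.7, 69.02 and 69.7 CPM in BT-TPR1, against 39.5, 88.7 and 71.5 CPM in untreated cells. TPX2 was at 263, 298 and 289 CPM in BT-TR2, 311, 340.2 and 405 CPM in BT-TR1, 267, 322 and 359 CPM in BT-TPR2 and 238, 286 and 288 CPM in BT-TPR1, against 214, 285 and 294 CPM in untreated cells. TPX2, ASPM and KIF4A rose in BT-TR1, by 0.41, 0.55 and 0.33 on the log2 scale, while HMMR was called in no pool. All 3 calls were lost with library size alone and without untreated replicate 1 or BT-TR1 replicate 3, and that of ASPM also without untreated replicate 3 or BT-TR1 replicate 2, at adjusted p of up to 0.0992, 0.287 and 0.244.

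In the last groups, ANLN was at 178, 224 and 232 CPM in BT-TR2, 243, 318 and 349.6 CPM in BT-TR1, 184, 229.5 and 268 CPM in BT-TPR2 and 188, 233 and 257 CPM in BT-TPR1, against 176, 285 and 248 CPM in untreated cells. TOP2A was at 277, 369 and 372 CPM in BT-TR2, 402, 542 and 616 CPM in BT-TR1, 312, 432 and 450.3 CPM in BT-TPR2 and 316, 415 and 399.6 CPM in BT-TPR1, against 282, 514 and 468 CPM in untreated cells. MKI67 was at 119, 149 and 152 CPM in BT-TR2, 152, 237 and 192 CPM in BT-TR1, 114, 146 and 146 CPM in BT-TPR2 and 115, 132 and 150.1 CPM in BT-TPR1, against 104, 167 and 161 CPM in untreated cells. These 3 genes were called in no pool and overlapped the untreated libraries. RACGAP1 rose in BT-TR2, BT-TR1 and BT-TPR2, by 0.34, 0.78 and 0.63, and ECT2 rose in BT-TR1 by 0.57. The BT-TR2 call of RACGAP1 held in 24 of 32 alternatives and was lost without untreated replicate 1 or 2, without any 1 of the BT-TR2 libraries and with no filter or library size alone, at adjusted p of up to 0.128. The BT-TR1 call of ECT2 was lost without untreated replicate 1 or BT-TR1 replicate 3 and with library size alone, at up to 0.177. FOXM1 was at 91.5, 84.1 and 93.2 CPM in BT-TR2, 74.2, 60.03 and 72.1 CPM in BT-TR1, 81.7, 90.7 and 86.05 CPM in BT-TPR2 and 81.2, 76.1 and 80.8 CPM in BT-TPR1, against 73.2, 45.04 and 74.5 CPM in untreated cells. FOXM1 rose in BT-TR2 by 0.48 ± 0.14 (adjusted p = 0.0185) and in BT-TPR2 by 0.42 ± 0.14 (adjusted p = 0.0288) in edgeR's quasi-likelihood test, with every library of both pools, and of BT-TPR1, above every untreated one. Without untreated replicate 2, the low untreated library, the changes were 0.29 (adjusted p = 0.0651) and 0.25 (adjusted p = 0.0956). The call in BT-TR2 was also lost without BT-TR2 replicate 3, and that in BT-TPR2 without BT-TPR2 replicate 2 or 3, with adjusted p of at most 0.113 and 0.14 over the alternatives.

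In BT-TR1, the pool with most calls, the change moved with GC content. Over the 41 genes the log2 fold change in BT-TR1 correlated with the GC content of the gene at r = -0.57, and over 17554 genes tested at r = -0.48. The corresponding values in BT-TR2 were 0.45 over the 41 genes and -0.080 over all. These correlations are across genes, which share libraries and are not independent. With the libraries corrected for GC content the median of the 41 genes in BT-TR1 was 0.11, against 0.33 without it, and 9 genes rose, against 13. The share of all genes called higher in the corrected fit is not given here. The 21 genes at or under the median GC content of the 41 had a median change of 0.44, and 0.068 after the correction. The 20 others had 0.15, and 0.14 after it. KIF4A, TPX2, PBK, ASPM and ECT2 lost their calls in BT-TR1 with the correction, and AURKA, PTTG1, NEK2, CENPA, BUB1, RACGAP1 and CCNA2 kept theirs in all 32 alternatives. BT-TR1 also had the lowest total counts, and the part of depth in its values was not tested.

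The 5 genes that fell in BT-TPR1 lie on chromosomes 14 and 15, which was seen after their values were known. CCNB2 was at 42.99, 48.9 and 53.4 CPM in BT-TPR2 and 38.1, 35.2 and 34.2 CPM in BT-TPR1, against 45.9, 44.3 and 47.8 CPM in untreated cells. NUSAP1 was at 45.5, 57.3 and 61.2 CPM in BT-TPR2 and 27.3, 35.9 and 34.8 CPM in BT-TPR1, against 37.03, 54.8 and 51.5 CPM in untreated cells. Both genes lay below the untreated libraries in BT-TPR1 and overlapped them in BT-TPR2. KIF23 was at 59.6, 66.6 and 70.8 CPM in BT-TPR2 and 45.01, 50.1 and 51.5 CPM in BT-TPR1, against 56.8, 69.1 and 64.8 CPM in untreated cells. PRC1 was at 105, 114 and 119.8 CPM in BT-TPR2 and 79.3, 88.02 and 93.2 CPM in BT-TPR1, against 96.9, 105 and 111 CPM in untreated cells. DLGAP5, on chromosome 14, was at 31.6, 41.7 and 45.5 CPM in BT-TPR2 and 33.1, 36.2 and 40.6 CPM in BT-TPR1, against 41.4, 68.9 and 55.7 CPM in untreated cells. KIF23, PRC1 and DLGAP5 likewise lay below every untreated library in BT-TPR1 and overlapped them in BT-TPR2, where replicate 1 of DLGAP5 was lower than any untreated library.

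In BT-TPR1 the changes were -0.36 ± 0.097 (adjusted p = 0.00959) in CCNB2, -0.38 ± 0.10 (adjusted p = 0.00952) in KIF23, -0.55 ± 0.17 (adjusted p = 0.0218) in NUSAP1, -0.26 ± 0.093 (adjusted p = 0.0408) in PRC1 and -0.60 ± 0.17 (adjusted p = 0.0153) in DLGAP5, by edgeR's quasi-likelihood test. The call of PRC1 held in 10 of 32 alternatives and the others in 27 to 29, and all 5 calls were lost with library size alone. Without BT-TPR1 replicate 1 or without untreated replicate 2 the calls of KIF23, NUSAP1, DLGAP5 and PRC1 were lost. That of NUSAP1 was also lost without untreated replicate 3, that of DLGAP5 without BT-TPR1 replicate 2, and that of PRC1 without untreated replicate 1 or 3 or BT-TPR1 replicate 2. BUB1B, the fifth of the 41 genes on chromosome 15, changed by -0.16 and was not called. The median log2 fold change in BT-TPR1 was -0.34 over 586 genes tested on chromosome 14 and -0.16 over 566 on chromosome 15, the lowest and the next lowest of 23 chromosomes, against 0.0082 and 0.0026 over the genes outside each. Called lower were 36.5% of genes on chromosome 14 and 22.8% on chromosome 15, against 13.6% and 14.1% elsewhere.

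In BT-TPR2 the median was -0.33 on chromosome 14 and 0.013 on chromosome 15. DLGAP5 alone of the 41 genes fell there, with a change of -0.48 ± 0.17 (adjusted p = 0.0396) in edgeR's quasi-likelihood test, beside a median of -0.37 over the 73 genes within 5 Mb of it. That call held in 20 of 32 alternatives and was lost when untreated replicate 2 or 3 or replicate 1 or 2 of BT-TPR2 was left out, with an adjusted p of at most 0.271. Over the genes within 5 Mb of PTTG1 the median was 0.39 in BT-TPR2 and 0.28 in BT-TPR1, and over those around AURKA it was 0.18 and -0.033. In BT-TR2 and BT-TR1 the medians were 0.18 and 0.545 around PTTG1 and 0.16 and 0.15 around AURKA. Around BIRC5, which also rose in all 4 pools, they were -0.21 in BT-TR2, -0.76 in BT-TR1, -0.34 in BT-TPR2 and -0.24 in BT-TPR1. Over the pools they ran from 0.024 to 0.15 around NEK2 and from 0.077 to 0.25 around CENPA. The number of copies of these chromosomes was not measured.

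Set against each other, the pools of a class differed in 10 and 5 of the 41 genes. In BT-TR2 against BT-TR1, CDK1, BUB1, CENPF, NDC80, KIF4A, HMMR, DLGAP5, ASPM, ECT2 and RACGAP1 were lower, none was higher, and 8.09% and 9.64% of all genes tested were called lower and higher. ASPM, a spindle pole protein, was at 177, 244 and 239 CPM in BT-TR2 against 319, 450.3 and 468 CPM in BT-TR1. HMMR was at 44.02, 59.4 and 57.8 CPM in BT-TR2 against 66.01, 97.6 and 122 CPM in BT-TR1. Every BT-TR2 library lay below every BT-TR1 library in both genes, as in 22 of the 41 and in 19.7% of all genes tested. ASPM changed by -0.90 ± 0.19 (adjusted p = 0.00576) and HMMR by -0.82 ± 0.26 (adjusted p = 0.036) in edgeR's quasi-likelihood test. Over the 41 genes the difference correlated with GC content at r = 0.89, and over all genes tested at r = 0.63. After the GC correction 1 of the 41, ASPM, was called. The median of the 41 differences was -0.35, and -0.11 after the correction.

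In BT-TR2 against BT-TR1 single libraries also moved the count. Leaving out untreated replicate 1 gave 18 calls. Leaving out BT-TR1 replicate 1, 2 or 3 gave 19, 2 or 1. Leaving out BT-TR2 replicate 1, 2 or 3 gave 1, 4 or 4. In BT-TPR2 against BT-TPR1, CCNB2, KIF23, NUSAP1, PRC1 and PTTG1 were higher and none was lower, where 1.64% of all genes tested were called higher and 1.81% lower. NUSAP1 had the largest difference, 0.74 ± 0.17 (adjusted p = 0.0161), and PTTG1 came next with 0.54 ± 0.13 (adjusted p = 0.0187), by edgeR's quasi-likelihood test. Chromosome 15 had the highest median of 23 chromosomes in this comparison, 0.17, and across the 41 genes the difference correlated at r = 0.64 with the median difference of the genes within 5 Mb. The same correlation was 0.50 in BT-TR2 against BT-TR1. Against untreated cells it was 0.021 in BT-TR2, 0.39 in BT-TR1, 0.38 in BT-TPR2, 0.39 in BT-TPR1 and -0.19 with both antibodies. In BT-TPR2 against BT-TPR1 the calls also moved with the fit. With replicate number as a block 9 were called, and none with library size alone. The count was 1 without BT-TPR1 replicate 1 or 2, 2 without BT-TPR2 replicate 2 and 0 without BT-TPR2 replicate 3.

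**Figure D5:**
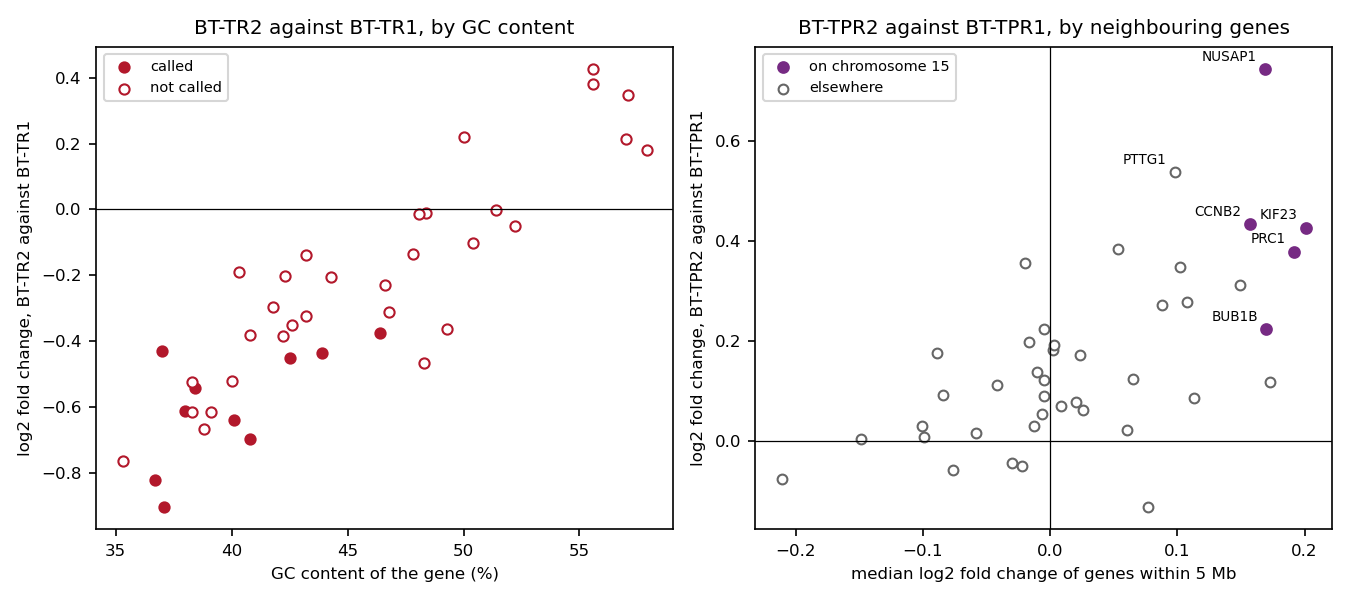
Left, log2 fold change of each mitosis gene in BT-TR2 against BT-TR1 by the GC content of the gene in percent, filled where called (r = 0.89 over 41 genes). Right, log2 fold change in BT-TPR2 against BT-TPR1 by the median log2 fold change of the genes within 5 Mb, with the 5 genes on chromosome 15 filled (r = 0.64), which lie right of 0.

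Against the antibody-treated parental cells, nearly all of the 41 genes were higher in the pools. In BT-TR2 against trastuzumab 36 rose, where 11.7% of all genes tested were called higher, and in BT-TR1 against trastuzumab 39 rose, where 39.9% of all genes were called and 20.3% called higher. In BT-TPR2 against both antibodies 40 rose, beside 13.6% of all genes tested, and in BT-TPR1 against both antibodies 37 rose, beside 11.9%. None of the 41 fell in these comparisons. Scaling to library size alone moved the median of all genes in BT-TPR1 against both antibodies to 0.152. With the main scaling the medians over the 41 genes were 0.88 in BT-TR2, 1.21 in BT-TR1, 1.04 in BT-TPR2 and 0.94 in BT-TPR1, which are folds of 1.84, 2.31, 2.06 and 1.92. The pools had been off antibody for 7 days while the parental cells were in it, so resistance and the presence of antibody cannot be told apart here.

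The highest of these changes were in PTTG1, PLK1 and CENPE. PTTG1 was at 27.4, 27.9 and 33.5 CPM in BT-TPR2 against 6.49, 6.18 and 7.11 CPM with both antibodies, a change of 2.17 ± 0.13 (adjusted p = 7.89e-10) in edgeR's quasi-likelihood test. PLK1 led in BT-TR2, with 1.69 ± 0.19 (adjusted p = 3.36e-06) against trastuzumab, and in BT-TPR1, with 1.75 ± 0.20 (adjusted p = 2.25e-06) against both antibodies, by that edgeR test. CENPE led in BT-TR1, with 2.06 ± 0.35 (adjusted p = 0.000165) against trastuzumab in the edgeR test. The genes that missed the threshold were few. They were AURKB and ESPL1 in BT-TR1, ESPL1, CENPF, NDC80, KIF11 and TOP2A in BT-TR2, AURKB, ESPL1, KIF11 and NUSAP1 in BT-TPR1, and KIF11 in BT-TPR2. NUSAP1, one of the genes of chromosome 15, stood at 0.012 in BT-TPR1 against both antibodies.

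Other mitotic genes also fell with antibody. These lists were drawn up with earlier results of these data known. Of 25 other spindle and cytokinesis genes 20 fell with both antibodies and 17 with trastuzumab, with medians of -0.84 and -0.705. DEPDC1 fell by 1.39 with both antibodies and SAPCD2 by 1.33 with trastuzumab. Of 8 condensin subunits, which compact chromosomes, 7 and 6 fell, led by NCAPG with both antibodies (-1.04) and SMC4 with trastuzumab (-1.05). Of 36 other kinetochore and centromere genes 14 and 13 fell, led by SGOL2, a guardian of centromeric cohesion, at -1.33 and -1.25. Of 10 regulators of mitotic entry 6 and 4 fell, led by PKMYT1 (-1.52), which inhibits CDK1, with both antibodies and by CCNF (-0.87) with trastuzumab. None of these 4 lists had a gene that rose with antibody in the fit without the block. Of all genes tested 6.02% were called lower with both antibodies and 3.78% with trastuzumab in that fit. Shares of all genes with the GC correction are not given here. With the GC correction the kinetochore counts were 21 with both antibodies and 20 with trastuzumab, and those of mitotic entry 9 and 8.

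The 11 cohesin genes, which hold sister chromosomes together, had medians of -0.17 and -0.22, with a smallest adjusted p of 0.163 and 0.151 in edgeR's quasi-likelihood test. With the GC correction 3 of them were called lower in each comparison, and with the replicate block 3 with both antibodies and 5 with trastuzumab. Of 17 APC/C subunits and partners, 2 fell and 2 rose in each, and 7 fell with both antibodies and 6 with trastuzumab under the GC correction, UBE2S falling by 1.48 with both antibodies and by 1.47 with trastuzumab, and ANAPC13 rising by 0.58 and 0.43. Of 13 DREAM and MuvB genes, 2 fell and 1 rose with both antibodies and 1 fell and 1 rose with trastuzumab, with MYBL2, which encodes B-MYB, at -0.60, RBL1, the pocket protein p107, at -0.59 and TFDP2, a partner of E2F factors, at 0.50 and 0.49. Of 10 tubulin genes TUBA1A rose in both comparisons, by 0.84 and 0.90, and TUBB3 fell with both antibodies, by 1.21. Beside these small counts, 6.02% of all genes tested fell and 6.39% rose with both antibodies, and 3.78% and 3.71% with trastuzumab. These shares are from the fit without the block or the GC correction.

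Genes of other phases of the cycle were followed as well. Of 20 G1/S and replication genes 4 fell with both antibodies and 5 with trastuzumab, with medians of -0.23 and -0.31, led by CDT1 (-1.06) and UHRF1 (-0.94), where 6.02% and 3.78% of all genes tested fell. With the GC correction the counts were 11 with both antibodies and 13 with trastuzumab, and with the replicate block 10 and 13. In the pools 7 of these 20 fell in BT-TR2, 12 in BT-TR1, 9 in BT-TPR2 and 6 in BT-TPR1 against untreated cells and none rose, with medians of -0.26, -0.45, -0.30 and -0.24, beside 12.1%, 22.3%, 16.0% and 14.4% of all genes tested. With the GC correction 14, 17, 14 and 12 of the 20 fell in the same order of pools, and with the replicate block 11, 15, 13 and 11. Shares of all genes in the corrected and block fits are not given here, for the pools or with antibody. The shares above are not their background. UHRF1, which maintains DNA methylation after replication, changed by -0.90 in BT-TR2, -1.63 in BT-TR1, -1.34 in BT-TPR2 and -0.83 in BT-TPR1. Of 9 genes of G1 arrest and quiescence 4 rose with both antibodies and 3 with trastuzumab, beside 6.39% and 3.71% of all genes tested. CDKN1A, the CDK inhibitor p21, rose by 1.53 and 1.40. CDKN1A was called in no pool against untreated cells, where its changes ran from -0.014 to 0.43. Of the 9 arrest and quiescence genes 2 rose in BT-TR2, 4 in BT-TR1, 4 in BT-TPR2 and 2 in BT-TPR1. Of all genes tested 12.7%, 21.3%, 15.6% and 12.9% rose in the same order. KLF4 fell in BT-TPR2 and BTG1 in BT-TPR1, and the medians of the 9 ran from 0.022 to 0.13. BTG2, an antiproliferative gene, rose in all 4 pools, by 0.97 in BT-TR2, 1.40 in BT-TR1, 0.80 in BT-TPR2 and 1.49 in BT-TPR1. In BT-TPR2 the largest rise of the list was in CDKN2D.

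In the pools the direction of the calls in the other mitotic lists varied with the list and the pool. Of the 8 condensin subunits 1 fell in BT-TR2, 2 in BT-TR1, 1 in BT-TPR2 and 0 in BT-TPR1, and none rose. Of the 11 cohesin genes 0 rose in BT-TR2, 2 in BT-TR1, 1 in BT-TPR2 and 0 in BT-TPR1, and none fell. These counts are from the fit without the block or the GC correction. With the GC correction the cohesin counts were 0 lower and 0 higher in BT-TR2, 2 and 0 in BT-TR1, 2 and 1 in BT-TPR2 and 1 and 2 in BT-TPR1. The condensin counts were then 3 lower and 0 higher in each pool. Of the 25 other spindle and cytokinesis genes 2 fell and none rose in BT-TR2, 5 fell and 7 rose in BT-TR1, 1 fell and 3 rose in BT-TPR2 and 2 fell and 1 rose in BT-TPR1. Of the 36 other kinetochore and centromere genes 4 fell and none rose in BT-TR2, 7 fell and 10 rose in BT-TR1, 2 fell and 1 rose in BT-TPR2 and 7 fell and none rose in BT-TPR1. Of all genes tested 12.1% fell and 12.7% rose in BT-TR2, 22.3% and 21.3% in BT-TR1, 16.0% and 15.6% in BT-TPR2 and 14.4% and 12.9% in BT-TPR1. With the GC correction the kinetochore counts were 8 lower and 3 higher in BT-TR2, 14 and 3 in BT-TR1, 11 and 4 in BT-TPR2 and 11 and 2 in BT-TPR1, and the spindle counts 6 and 1, 3 and 3, 5 and 5, and 4 and 1 in the same order. Shares of all genes in the corrected fit are not given here. CKS2, a partner of CDK1, rose in all 4, by 0.78 in BT-TR2, 0.41 in BT-TR1, 0.90 in BT-TPR2 and 0.47 in BT-TPR1, and PKMYT1 fell in BT-TR1 by 2.57, in BT-TPR2 by 1.22 and in BT-TPR1 by 1.27. SAPCD2 fell in BT-TR2, BT-TR1 and BT-TPR2, by 0.67, 1.17 and 0.65. ARHGAP11A rose most of the other spindle genes in BT-TPR2, by 1.39, and CKAP2L in BT-TR1, by 0.75. CASC5, a kinetochore scaffold, fell most of its list in BT-TPR1, by 0.83. FZR1, the APC/C activator that takes over from CDC20, fell in BT-TR2, BT-TR1 and BT-TPR2, by 0.96, 2.00 and 1.24. Of its list of 17 genes 3 fell and 1 rose in BT-TR2, 4 and 5 in BT-TR1, 4 and 1 in BT-TPR2 and 2 and 2 in BT-TPR1. The list medians were 0.061, 0.0043, -0.0215 and -0.0225 in the same order. ANAPC10 rose most in BT-TR1 and ANAPC16 in the other pools. Among tubulins TUBA4A rose in all 4 pools, by 1.28 to 2.04, and TUBA1A fell in all 4, with changes of -1.08 in BT-TR2, -2.06 in BT-TR1, -2.37 in BT-TPR2 and -2.04 in BT-TPR1.

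Per kilobase of the longest annotated transcript, AURKA had the highest mean level of the 41 genes in untreated cells, 94.6 CPM per kb, followed by TPX2 at 73.4, TOP2A at 73.2 and CDK1 at 57.1 CPM per kb. CENPE at 7.34 and KIF14 at 2.94 CPM per kb were the lowest, although CENPE fell most with antibody. The 5 other tested genes whose mean log2 CPM over the 7 groups ran most like the mean of the 41 were GAS2L3 (r = 0.998), NCAPH (0.990), KIF4B (0.990), MET (0.988) and RP11-417L14.1 (0.988). KIF4B is an intronless copy of KIF4A, with 217 to 694 counts per library, and how reads were divided between them was not tested. GAS2L3, which links actin and microtubules, averaged 16.4 CPM in BT-TR2, 23.6 in BT-TR1, 17.5 in BT-TPR2, 16.3 in BT-TPR1, 6.33 with both antibodies and 6.68 with trastuzumab, against 16.4 CPM in untreated cells.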

How the data were processed

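RNA of 21 libraries in 7 groups of 3 was compared. The authors deposited a table of read counts per gene and a table of variance-stabilized values on the log2 scale. Per the submitters' processing notes, Bowtie2, featureCounts, DESeq2 and build hg38 were used, and their versions and the strand setting are not given in the sources used here. The deposited counts were scaled by TMM after edgeR's filter for low expression (minimum count 10), and a quasi-likelihood model over all 7 groups gave 13 comparisons of 17650 genes, called at a Benjamini-Hochberg adjusted p under 0.05. CPM were computed from the counts and the TMM library sizes. Values in every library are given for the leading genes of each role and the other members by changes. From the other lists some of the called genes with the largest change each way are named. The 41 members, the other lists and the rule for named genes were chosen with earlier results of these data known. Libraries of the same replicate number deviated together (correlation over 0.1 at all 3 numbers) in 10 of the 13 comparisons, and not in both antibodies against untreated (lowest -0.0106), BT-TR1 against trastuzumab (0.0961) and BT-TR2 against BT-TR1 (0.0732). The test was tried on simulated counts before use. Alternatives were another filter, scaling, tool or set of libraries, a replicate block and a GC correction from a spline of log counts. R 4.3.3, edgeR 4.0.16, limma 3.58.1, DESeq2 1.42.0, Python 3.11.15, pandas 2.3.3 and matplotlib 3.10.9 were used.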

Additional observations from a re-analysis of the deposited data

Results flagged for a closer look

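The 2 pools of a resistance class, set against each other, differed in 15 changes of the mitosis genes that passed edgeR's quasi-likelihood test of the difference itself, and this is what brought them here. In BT-TR2 against BT-TR1 the log2 differences were -0.90 in ASPM, -0.82 in HMMR, -0.70 in CENPF, -0.64 in NDC80, -0.61 in ECT2, -0.54 in DLGAP5, -0.45 in BUB1, -0.44 in RACGAP1, -0.43 in CDK1 and -0.37 in KIF4A. The differences ran with GC content, and the part of GC content in them was not tested beyond the correction, which left ASPM alone past the threshold. In BT-TPR2 against BT-TPR1 the differences were 0.74 in NUSAP1, 0.54 in PTTG1, 0.43 in CCNB2, 0.43 in KIF23 and 0.38 in PRC1. All of these but PTTG1 lie on chromosome 15.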

How the results depend on the processing

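Each comparison was recomputed under 32 alternatives. Of the resulting counts of called genes, 367 stayed within 1.5 times the value reported, 48 moved further and 1 changed its leading direction. With antibody against untreated cells, and in the pools against antibody-treated cells, every count stayed within 1.5 times. With 1 library left out they ran from 33 to 39 with both antibodies and from 30 to 38 with trastuzumab. In both antibodies against trastuzumab 1 gene was called with the GC correction and replicate block together.

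In the pools against untreated cells the replicate block gave 13 calls in BT-TR2, 31 in BT-TR1, 18 in BT-TPR2 and 18 in BT-TPR1, and with the GC correction as well 16 in BT-TR2, 14 in BT-TPR2 and 20 in BT-TPR1. The GC correction alone gave 13 in BT-TR2. Replicates 2 and 3 alone gave 15 in BT-TR2, with more lower than higher (8 and 7), 23 in BT-TR1 and 16 in BT-TPR2. Fits of only the groups compared gave 1 in BT-TR2, 5 in BT-TPR2 and 2 in BT-TPR1, and no filter gave 4 in BT-TPR1. With 1 library left out counts ran from 3 to 9 in BT-TR2, 9 to 23 in BT-TR1, 5 to 10 in BT-TPR2 and 4 to 10 in BT-TPR1.

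In BT-TR2 against BT-TR1, where libraries of the same number did not all deviate together, the replicate block gave 29 calls, replicates 2 and 3 alone 23, DESeq2 17, no filter 16, only the groups compared 5, and library size alone and the GC correction 1 each, with 1 to 19 when 1 library was left out. CDK1 turned to 0.022 with the GC correction, with and without the replicate block. In BT-TPR2 against BT-TPR1 the replicate block gave 9, the block with the GC correction 10, no filter 1, and library size alone and only the groups compared 0, with 0 to 6 when 1 library was left out. In both antibodies against untreated cells, where libraries of the same number did not all deviate together either, the block called all 41. The causes were not tested, and shares of all genes called under the alternatives are not given here. The smallest library, of BT-TR1, held 7939270 counts, and the effect of depth on the calls was not tested.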
